A study of Mus musculus with 4 samples.

Results

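The epithelial junction genes described here are 10 genes whose products hold epithelial cells to each other: the adhesion molecule gene Epcam, the cadherin genes Cdh1 and Cdh3, the claudin genes Cldn1, Cldn3, Cldn4, Cldn7 and Cldn8, and the desmosome genes Dsp and Jup. They were listed by name, with earlier results of these data known. Every probe set that the array annotation assigns to one of them alone was taken, which gave 16 probe sets for 10 of the 17097 genes named on the array. Expression was measured on 4 Affymetrix arrays. A pair of arrays holds wild-type glands, Mt1-mmp(+/+), and a pair holds glands of littermates that lack Mt1-mmp throughout the body, Mt1-mmp(-/-), all aged 10 days after birth and of the outbred Swiss Black background. Each array carries RNA of intact inguinal mammary tissue, a fat pad with a small epithelial tree inside it. The sex of the mice and whether a sample pools several animals are not given in the sources used here, so p-values measure the spread between these 4 samples. Mt1-mmp, listed on the array as Mmp14, encodes a membrane-bound protease that cleaves collagen and other matrix proteins.

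Epithelial cells are joined by several kinds of contact. Claudins form the tight junction strands that seal the space between neighbouring cells and decide which ions pass. Classical cadherins bind each other across the gap in adherens junctions, and desmosomes tie the keratin filaments of one cell to those of the next. In the mammary gland Cdh1 (E-cadherin) marks the luminal layer and Cdh3 (P-cadherin) the basal layer, while skin and hair follicles use many of the same junction genes, so none of the 10 is particular to mammary epithelium.

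The genes lie on 6 chromosomes of the mouse genome build GRCm38.p6, and all are annotated as protein-coding. Cldn4 (chr5:134945123-134946934) and Cldn3 (chr5:134986214-134987476) are neighbours with 39279 bases and no annotated gene between them. Cdh3 (chr8:106510852-106556911) and Cdh1 (chr8:106603350-106670247) lie 46438 bases apart with 0 protein-coding genes between them. Epcam is at chr17:87635979-87651127, Cldn7 at chr11:69964779-69967886, Jup at chr11:100368856-100397839, Dsp at chr13:38151294-38198577, Cldn1 at chr16:26356645-26371839 and Cldn8 at chr16:88560826-88563183. RefSeq promoter windows of the same build were matched for 7 of the 10 genes, all but Cdh1, Cdh3 and Cldn8. The 250 bases before the annotated start were searched on both strands for CAGGTG, the E-box that Snail and Zeb repressors of epithelial genes are known to bind, and for AACCGGTT, the site of Grainyhead-like activators. CAGGTG or its reverse complement was present in windows of Epcam, Cldn4 and Cldn7, 3 of 7 genes. The 7 genes had 8 windows, since Cldn7 had more than 1. The Cldn7 window before the gene start held 0 matches, and its matches lay in a second window inside the gene (chr11:69965171-69965420). Of 32851 windows of all genes 17.2% held the motif, a share per window and not per gene. AACCGGTT was in 0 of the 7 genes' windows and in 0.116% of all windows. A match describes the letters only. The windows of Epcam, the member with the clearest disagreement between probe sets, and of the neighbours Cldn4 and Cldn3, whose array patterns differed, are shown 5′ to 3′ on the strand of the gene, with the E-box letters in capitals.
Epcam (chr17:87635729-87635978, + strand): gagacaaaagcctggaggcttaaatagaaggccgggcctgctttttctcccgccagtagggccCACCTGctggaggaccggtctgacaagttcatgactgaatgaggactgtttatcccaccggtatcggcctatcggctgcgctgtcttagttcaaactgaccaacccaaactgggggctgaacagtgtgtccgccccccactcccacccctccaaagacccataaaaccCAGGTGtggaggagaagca
Cldn4 (chr5:134946935-134947184, - strand): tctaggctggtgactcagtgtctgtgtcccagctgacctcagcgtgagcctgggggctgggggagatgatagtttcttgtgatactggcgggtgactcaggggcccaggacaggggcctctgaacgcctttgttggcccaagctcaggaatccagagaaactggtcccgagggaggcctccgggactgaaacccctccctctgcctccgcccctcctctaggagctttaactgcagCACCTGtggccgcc
Cldn3 (chr5:134985964-134986213, + strand): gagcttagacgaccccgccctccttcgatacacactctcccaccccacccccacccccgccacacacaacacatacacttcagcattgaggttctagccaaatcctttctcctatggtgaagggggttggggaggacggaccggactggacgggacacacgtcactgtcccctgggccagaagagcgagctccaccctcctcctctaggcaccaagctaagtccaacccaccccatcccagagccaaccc
Epcam holds 2 E-boxes, which begin 187 and 19 bases before the start, Cldn4 holds 1 that begins 14 bases before it, and the Cldn3 window holds 0.

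Mmp14, the targeted gene, stood at 8.92 and 8.73 in the wild-type pair and 5.83 and 5.68 in the knockout pair (log2), a difference of -3.07 ± 0.12 (SE, n = 2 per group) with a limma adjusted p of 0.0738 (Benjamini-Hochberg). Both knockout arrays were below both wild-type arrays, but the sources used here do not say whether the deletion removes the sequence these probes read. Values throughout are log2 expression from RMA, so a difference of 1 is a doubling. Genes were tested where the mean over the arrays reached 4.94, the median of all probe sets, called the brightness limit here. RMA compresses differences between dim values. The gland samples differed in other tissues as well. Skeletal muscle markers had a mean level of 10.34 in knockout replicate 2 and of 4.62, 6.57 and 4.65 in wild-type replicates 1 and 2 and knockout replicate 1. Epidermis and hair follicle markers had a mean level of 8.42 in knockout replicate 1 and of 5.64, 6.26 and 5.03 in wild-type replicates 1 and 2 and knockout replicate 2. Of these markers 12 of 15 for muscle and 15 of 19 for epidermis and hair follicle reached the brightness limit. Whether these tissues contributed to the values below was not tested, and fewer cells of a type cannot be told apart from less RNA per cell in a whole gland.

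The mean was higher in the knockout for all 9 junction genes bright enough to test, beside 46.5% of all tested genes. No member passed the test. With limma and Benjamini-Hochberg adjustment over 11078 genes, 0 members had an adjusted p under 0.05, as had 0 of all genes (0.0% higher and 0.0% lower), and the members' adjusted p ran from 0.222 to 0.691. At an unadjusted p under 0.05 there were 2 members, Epcam and Cdh3, both higher, where 9.69% of all genes were higher and 12.1% lower at that level. Both knockout arrays lay above both wild-type arrays for 7 of the 10 genes, counting Cldn8, and for 6 of the 9 tested, where 26.3% of tested genes did so. None of the tested members lay below wild type in both knockout arrays, where 32.5% of genes did. The other 3, Cldn1, Dsp and Jup, overlapped between genotypes. The median difference of the tested members was 1.00, beside -0.02 over all tested genes. Because the members were listed with earlier results of these data known, these shares and medians describe the list and carry no test. Against the mean of wild type, knockout replicate 1 alone gave a median of 1.31 and knockout replicate 2 one of 0.31. The arrays of one genotype also lay far apart. The median gap between the wild-type arrays was 0.45 for the members and 0.0785 for all genes, and between the knockout arrays 0.55 and 0.21. The wild-type arrays were at least 0.4 apart for 5 of the 9 tested members, Epcam, Cdh1, Cldn3, Cldn7 and Dsp, beside 3.56% of all genes.

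**Figure D1:**
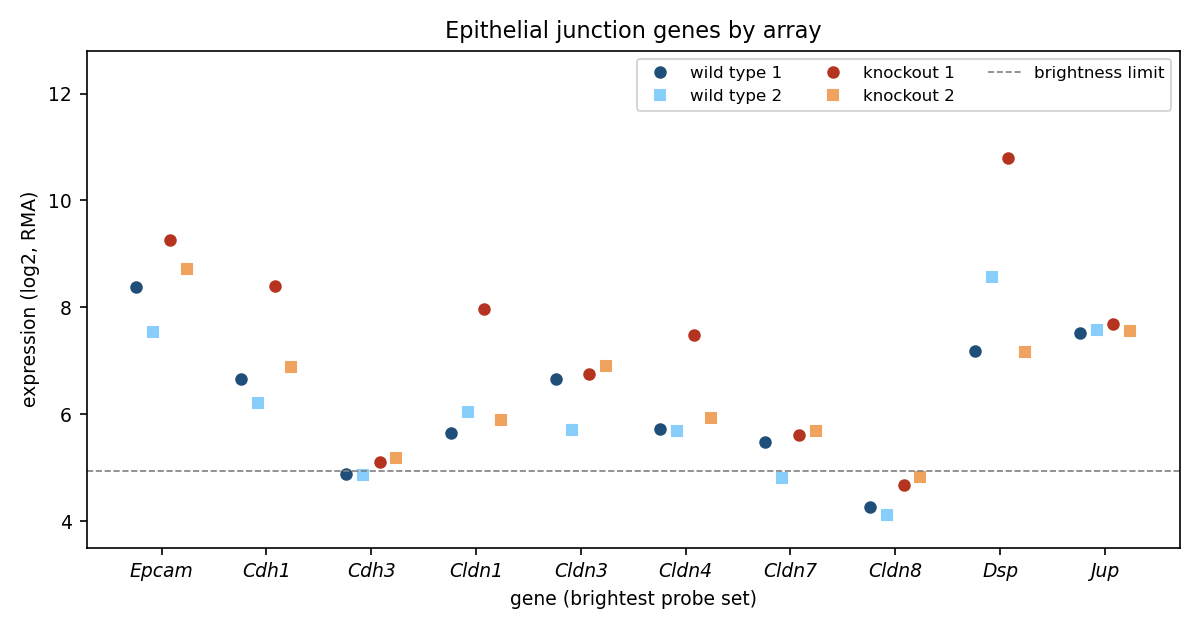
Log2 RMA expression (vertical axis) of the brightest probe set of each of the 10 epithelial junction genes (horizontal axis), with 1 point per array and the brightness limit of 4.94 as a dashed line. Knockout replicate 1 stands well above the other 3 arrays for Cdh1, Cldn1, Cldn4 and Dsp, wild-type replicate 2 is at least 0.4 below every other array for Epcam, Cdh1, Cldn3 and Cldn7, and Jup is nearly level.

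Epcam encodes a homophilic adhesion molecule of simple epithelia, which also binds claudins and keeps them at the membrane. Wild-type values of its brighter probe set were 8.37 and 7.54, against 9.27 and 8.72 without Mmp14. Both knockout arrays were above both wild-type arrays, and wild-type replicate 2 was the lowest. The difference was 1.04 ± 0.36 (SE, n = 2 per group), or 2.05-fold, with a 95% confidence interval of 0.017 to 2.05 and a limma adjusted p of 0.227. The second Epcam probe set was almost as bright, at 8.24 and 8.31 in the wild-type pair and 8.30 and 8.04 in the knockout pair. Here the genotypes overlapped and knockout replicate 2 was the lowest array. Its difference was -0.10 ± 0.13, with an interval of -0.46 to 0.26 and an adjusted p of 0.673 in the limma fit over 16329 single-gene probe sets. The first set has a name ending in a_at, used for probes shared by transcripts of one gene, and the second in x_at, used where some probes can also match unrelated transcripts. The brighter set spanned 1.72 over the 4 arrays and the second 0.27. With the sets averaged the difference of Epcam was 0.47, so the size of its difference depends on the probe set.

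Cdh1, the main cadherin of epithelial adherens junctions, had a single probe set. It gave 6.66 and 6.21 in the wild-type pair and 8.40 and 6.89 in the knockout pair. The groups did not overlap, but knockout replicate 1 was 2.85-fold above knockout replicate 2, while knockout replicate 2 lay only 0.46 above the wild-type mean. The difference of 1.21 ± 0.57 (SE, n = 2 per group) had an interval of -0.37 to 2.79 and a limma adjusted p of 0.306. Cdh3, the cadherin of the basal layer and of hair follicles, was near the brightness limit. It gave 4.89 and 4.86 against 5.10 and 5.18, with gaps within a genotype of -0.03 and 0.08 (replicate 2 minus replicate 1). The difference was 0.27 ± 0.09 with an interval of 0.0089 to 0.53, the narrowest of the members, and a limma adjusted p of 0.222. A second Cdh3 set lay below the limit, at 4.22 and 4.40 against 4.21 and 4.28, with overlapping groups. The cadherin neighbours on chromosome 8 therefore differed in pattern, with Cdh1 led by a single array and Cdh3 level within each genotype.

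Among the claudin genes Cldn3, Cldn7 and, less distinctly, Cldn8 had a pattern in which both knockout arrays were alike and wild-type replicate 2 was the lowest. Cldn3, a barrier-forming claudin, gave 6.66 and 5.71 in the wild-type pair and 6.76 and 6.89 in the knockout pair. The name of this set ends in x_at, as that of the second Epcam set does. The knockout arrays were 0.13 apart, whereas wild-type replicate 2 was 1.93-fold below wild-type replicate 1. The difference was 0.64 ± 0.35 (SE, n = 2 per group), with an interval of -0.34 to 1.63 and a limma adjusted p of 0.364. Cldn7, a claudin found along the lateral membrane as well as in tight junctions and a partner of Epcam, gave 5.48 and 4.80 against 5.61 and 5.68. Its wild-type gap of -0.69 (replicate 2 minus replicate 1) exceeded its difference of 0.50 ± 0.26, which had an interval of -0.23 to 1.23 and a limma adjusted p of 0.345. Cldn8, known from tight ion-restricting epithelia, had its single set below the brightness limit with a mean of 4.47, and was not tested. It gave 4.26 and 4.11 against 4.68 and 4.82, and the knockout arrays were again above the wild-type arrays, by 0.56 in the mean. Its wild-type gap of -0.15 was close in size to its knockout gap of 0.14 (replicate 2 minus replicate 1), unlike in Cldn3 and Cldn7.

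Cldn1 and Cldn4 were instead set apart by knockout replicate 1. Cldn1, the claudin that the skin's water barrier depends on, gave 5.64 and 6.04 in the wild-type pair and 7.97 and 5.89 in the knockout pair. Knockout replicate 2 fell between the wild-type arrays, so the groups overlapped. The difference of 1.09 ± 0.76 (SE, n = 2 per group) had an interval of -1.03 to 3.21 and a limma adjusted p of 0.452. Cldn4, a claudin of secretory and barrier epithelia, gave 5.73 and 5.68 against 7.48 and 5.93. The wild-type arrays were 0.05 apart, knockout replicate 1 stood 1.78 above their mean and knockout replicate 2 0.23 above it. The difference was 1.00 ± 0.56 with an interval of -0.56 to 2.57 and a limma adjusted p of 0.369. Cldn4 and Cldn3 are chromosomal neighbours, yet knockout replicate 1 exceeded knockout replicate 2 by 1.55 in Cldn4 and was 0.13 below it in Cldn3.

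The desmosome genes were the most and the least variable members. Dsp encodes desmoplakin, the plaque protein that anchors keratin filaments. Its brightest set gave 7.18 and 8.56 in the wild-type pair and 10.79 and 7.17 in the knockout pair. The knockout arrays were 12.3-fold apart, with replicate 1 the highest of the 4 and replicate 2 level with the lower wild-type array, and the wild-type arrays were 1.38 apart. The genotype difference of 1.11 ± 1.38 (SE, n = 2 per group) had an interval of -2.75 to 4.97 and a limma adjusted p of 0.662. Jup encodes plakoglobin, a catenin that binds both desmosomal and classical cadherins and is also made in heart muscle and endothelium. It gave 7.52 and 7.58 against 7.68 and 7.56, a range of 0.16 over the 4 arrays. The difference was 0.07 ± 0.10 with an interval of -0.21 to 0.35 and a limma adjusted p of 0.691, so the interval excludes a difference as large as the median of the tested members.

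Of the 5 genes with more than 1 probe set, Dsp had sets that repeated the pattern and Epcam had sets that did not. The second Cdh3 set, below the brightness limit, also went the other way, with a difference of -0.06 against 0.27 in the brighter set. The second Dsp set gave 6.21 and 7.63 in the wild-type pair and 9.85 and 6.22 in the knockout pair, a difference of 1.12 against 1.11 in the brightest. The third Dsp set lay between 3.63 and 3.74 on all arrays, far below the limit. The dimmer Cldn3 set gave 4.93 and 4.64 against 5.04 and 5.14, the same order of arrays as the brighter set at a smaller spread. It lay just below the limit, with a difference of 0.30 against 0.64 in the brighter set. The dimmer Cldn1 set ran from 4.08 to 4.49 and was also highest in knockout replicate 1, with a difference of 0.15 against 1.09 in the brighter set. Of the 16 sets, 11 reached the brightness limit.

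**Figure D2:**
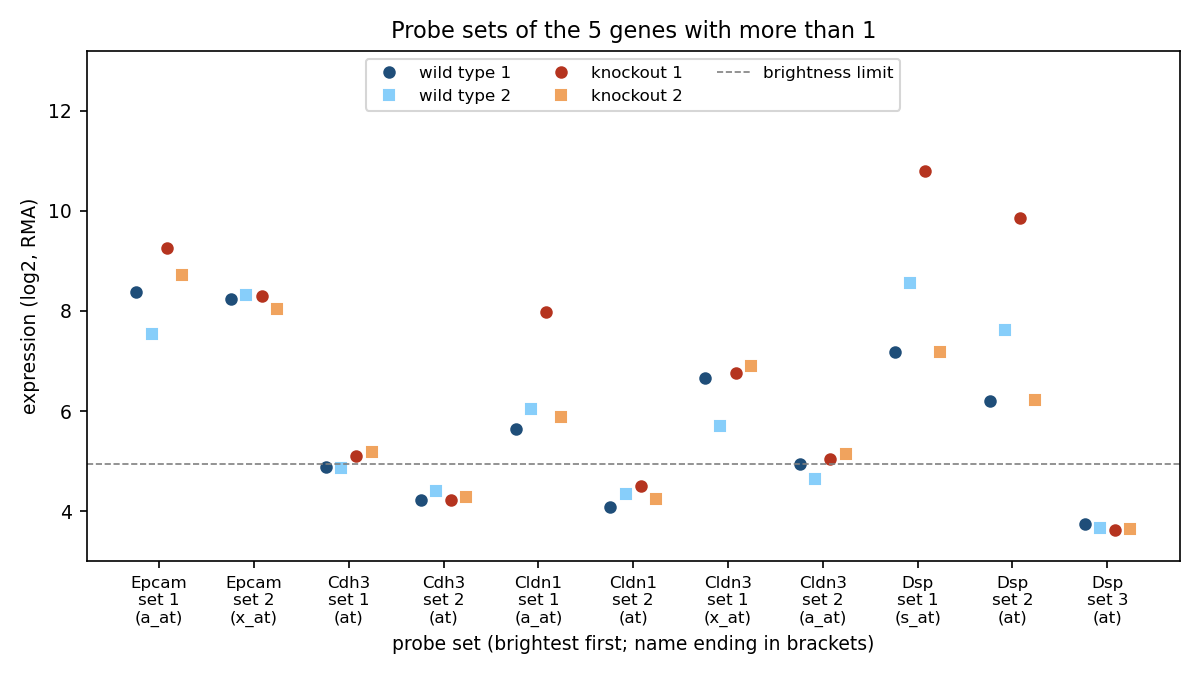
Log2 RMA expression (vertical axis) of each probe set of the 5 genes with more than 1 set (horizontal axis, brightest first), with 1 point per array and the brightness limit as a dashed line. The first Epcam set spans 1.72 over the arrays and the second 0.27, while the first and second Dsp sets place the arrays in the same way.

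Each member was then set beside markers of the cell types the gland sample can hold, by the distance between its values, centred on their mean over the 4 arrays, and the median of the centred values of a marker list. This description, and the steps of 0.4 and 1 used with it, were chosen after the values were seen and carry no test. The luminal list was nearest to Cldn3 (root mean square distance 0.093 on the log2 scale), Cldn7 (0.13), Epcam (0.24) and Cldn8 (0.28). The luminal keratin gene Krt18 gave 8.36 and 7.27 in the wild-type pair and 8.79 and 8.72 in the knockout pair, and Krt8 gave 8.73 and 7.38 against 8.64 and 8.93. Not all luminal markers did the same, and of the 10 tested 9 had a higher mean and 1 a lower one. The lower one was Prom1, highest in wild-type replicate 2 and lowest in knockout replicate 1 (7.28 and 7.68 against 6.67 and 7.19). Of 12 luminal markers on the array 10 were tested, and 7 of them had wild-type replicate 2 at least 0.4 below every other array. The same held for 4 of the 9 tested junction genes, Epcam, Cdh1, Cldn3 and Cldn7, and for 0.451% of all tested genes. The mean level of the 12 luminal markers was 6.90 and 6.19 in the wild-type pair and 7.06 and 7.00 in the knockout pair. The luminal gap between wild-type arrays, with a median of -1.11, was larger than the luminal median difference between genotypes of 0.59.

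Cldn1 (0.36) and Dsp (0.42) were nearest to the epidermis and hair follicle list, and Cdh1 (0.37) and Cldn4 (0.29) to the basal list. Knockout replicate 1 was at least 1 above every other array for Cdh1, Cldn1, Cldn4 and Dsp, 4 of 9 members, beside 1.23% of all tested genes. It was so for 14 of the 15 tested epidermis and hair follicle markers and for 3 of 7 basal markers. Some of these markers, such as Lor, reached the brightness limit only through knockout replicate 1, so for them the filter partly fixed this outcome. The cornified envelope gene Lor stood at 8.65 in knockout replicate 1, against 3.91 and 4.11 in wild type and 4.01 in knockout replicate 2. The keratin gene Krt14, made in basal cells of both mammary gland and skin, gave 6.71 and 6.49 against 9.41 and 7.15. Not all basal markers did the same, and of the 7 tested 6 had a higher mean and 1 a lower one. Oxtr was lowest in knockout replicate 1 (8.02 and 7.06 against 6.77 and 7.70), and Acta2 was nearly level (11.72 and 11.52 against 11.60 and 11.74). Mean levels of the 7 basal markers were 7.05 and 6.92 in the wild-type pair and 8.05 and 7.33 in the knockout pair. In wild type, replicate 2 was above replicate 1 by 1.38 in Dsp and by a median of 0.27 over the tested epidermis and hair follicle markers. Cdh3 and Jup, the members with the smallest spread, were nearest to the adipocyte list. The centred medians of that list were 0.09 and 0.08 in the wild-type pair and 0.05 and -0.23 in the knockout pair. Cdh3 was highest in knockout replicate 2, where that list was lowest, so its nearness reflects a small spread and not a shared order of arrays. The leptin gene Lep in that list differed far more, at 10.72 and 10.72 against 6.95 and 4.48.

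**Figure D3:**
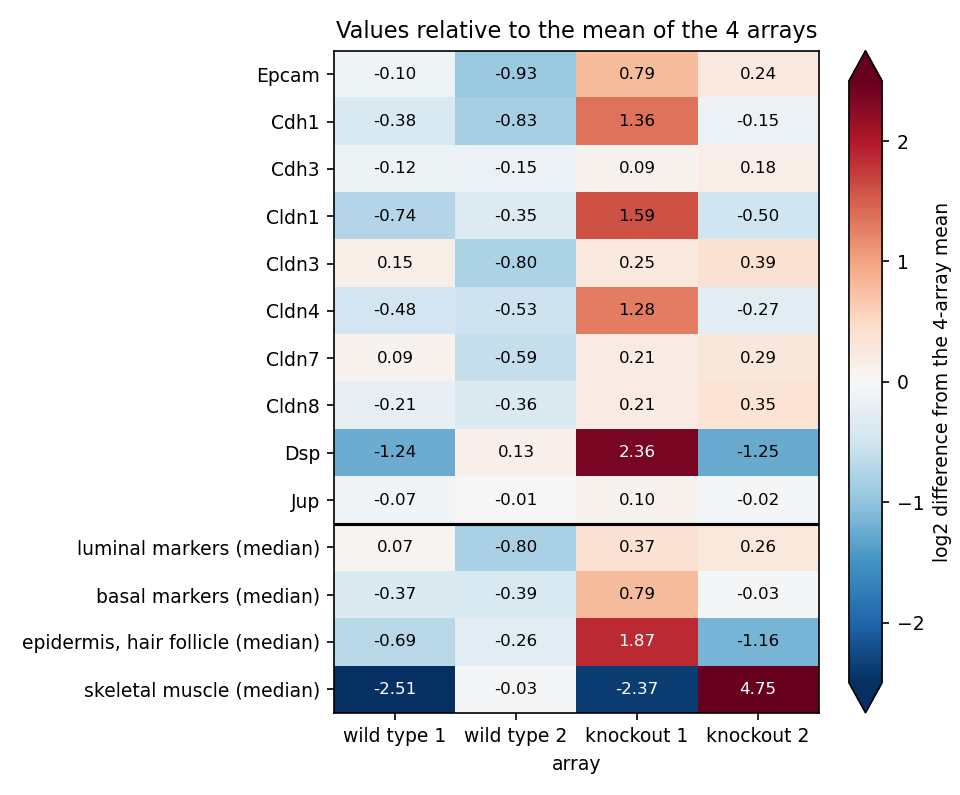
Log2 difference of each array (columns) from the mean of the 4 arrays, for the 10 junction genes and, below the line, for the median of 4 marker lists; colours saturate at 2.5. Wild-type replicate 2 runs from -0.93 to -0.59 for Epcam, Cdh1, Cldn3 and Cldn7 and is -0.80 for the luminal markers. Knockout replicate 1 is positive for all 10 members, above 1 for Cdh1, Cldn1, Cldn4 and Dsp, and positive for the luminal (0.37), basal (0.79) and epidermis and hair follicle markers (1.87).

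Leaving out each array in turn showed which values rest on a single one. Without knockout replicate 1 the difference was 0.76 in Epcam, 0.46 in Cdh1, 0.23 in Cldn4 and 0.047 in Cldn1, and that of Dsp turned to -0.70. Cdh3 was then 0.31. With a single knockout array left its spread is taken from the wild-type pair, so differences alone are given here. Without knockout replicate 2 the difference was 1.96 in Cdh1, 2.13 in Cldn1, 1.78 in Cldn4 and 2.92 in Dsp. Without wild-type replicate 2 the difference was 0.17 in Cldn3, 0.16 in Cldn7 and 0.62 in Epcam, and without wild-type replicate 1 it was 1.12, 0.84 and 1.45. Of the members' directions, the one that turned was that of Dsp.

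**Figure D4:**
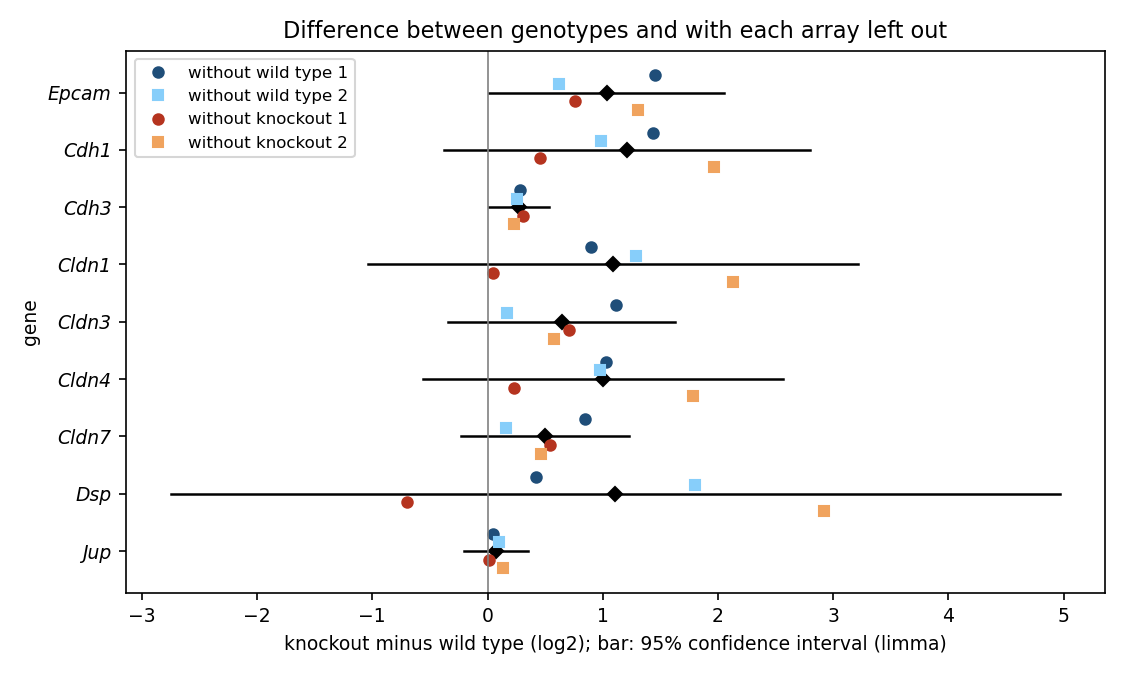
Difference between genotypes (knockout minus wild type, log2, horizontal axis) for the 9 tested junction genes, as a diamond with its 95% confidence interval from limma, and with each array left out as a coloured point. The points without knockout replicate 1 move close to 0 for Cldn1 and below 0 for Dsp, and those without wild-type replicate 2 move toward 0 for Cldn3 and Cldn7.

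Other components of the same junctions were described by lists, with 0 of 64 tested genes called by limma. At an unadjusted p under 0.05, 6 of the 64 were higher (9.38%) and 5 lower (7.81%), beside 9.69% and 12.1% of all genes. Their medians stand beside 1.00 for the tested junction genes and -0.02 for all genes, of which 46.5% had a higher mean in the knockout. Of 17 tested adherens junction and cell-surface partners 6 had a higher mean and 11 a lower one, and their median was -0.07. Cdh2, the cadherin of nerve, muscle and mesenchyme, gave 7.04 and 6.61 in the wild-type pair and 6.00 and 5.50 in the knockout pair, a difference of -1.08 ± 0.25 (SE, n = 2 per group; limma adjusted p = 0.153). Spint2, an inhibitor of epithelial surface proteases, differed by 0.67 ± 0.19 (limma adjusted p = 0.185), the nectin gene Nectin2 by -0.41 and the vinculin gene Vcl by -0.39. Of 7 other claudins tested 4 had a higher mean and 3 a lower one, with a median of 0.04 and differences of 0.48 in Cldn15, 0.24 in the endothelial claudin gene Cldn5, -0.11 in Cldn2 and -0.10 in Cldn13. The 8 remaining claudins on the array lay below the brightness limit.

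Tight junction and polarity genes had small differences, 12 of 16 higher in the mean with a median of 0.07. The cingulin-like gene Cgnl1 gave 8.36 and 8.48 against 9.22 and 8.93, or 0.65 ± 0.14 (SE, n = 2 per group; limma adjusted p = 0.149). The polarity gene Pard3 differed by 0.36 ± 0.10, the scaffold gene Tjp1 (ZO-1) by 0.25 ± 0.09 and Arhgef18 by -0.23. Of 9 other desmosome and plaque genes 8 were higher, with a median of 0.73, but the median in knockout replicate 1 was 1.46 above the wild-type mean and in knockout replicate 2 it was -0.13. Dsc1 (4.09 and 5.06 against 8.37 and 4.12) and Evpl (4.61 and 5.12 against 6.46 and 4.74) reached the brightness limit only through knockout replicate 1. They thus entered this count and median through the array where they were high, so the filter partly fixed both. The plakophilin gene Pkp1 (6.91 and 7.05 against 8.78 and 7.10) and the desmosomal cadherin gene Dsg2 (5.77 and 5.43 against 7.05 and 5.73) were highest in knockout replicate 1, as Dsp was. Pkp4, a plakophilin-like catenin gene, was 0.57 ± 0.11 higher in the mean (limma adjusted p = 0.139). The 1 gene lower was Pkp2, at 8.20 and 7.86 in the wild-type pair and 6.32 and 4.71 in the knockout pair, a difference of -2.52 ± 0.59 (limma adjusted p = 0.155).

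Among 15 tested regulators of epithelial junction genes 10 had a higher mean and 5 a lower one, and their median was 0.25. The repressor gene Zeb1 gave 9.47 and 9.53 against 9.16 and 9.16 (-0.34 ± 0.09, SE, n = 2 per group). Zeb2, also a repressor gene, gave 9.52 and 9.51 against 9.20 and 8.61 (-0.61 ± 0.23). Whether either acts on the members in this tissue was not tested. Twist2, a repressor gene of mesenchymal cells, gave 7.80 and 7.63 against 8.53 and 8.58, a difference of 0.84 ± 0.11 with a limma adjusted p of 0.105. Klf4, a regulator gene of epithelial differentiation, differed by 0.32 ± 0.11. Grhl2, the Grainyhead-like gene of simple epithelia, gave 6.84 and 6.67 against 6.93 and 7.01, a difference of 0.22 ± 0.11 (limma adjusted p = 0.332). Grhl1, another Grainyhead-like gene, gave 5.64 and 5.97 against 7.99 and 6.09, a difference of 1.24 ± 0.69 (limma adjusted p = 0.369). Both were higher in both knockout arrays than in both wild-type arrays, as were 8 of the 15 tested regulators in all and 26.3% of all tested genes. Grhl1 was led by knockout replicate 1, which stood 1.90 above every other array, while knockout replicate 2 (6.09) lay close to wild-type replicate 2 (5.97).

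**Figure D5:**
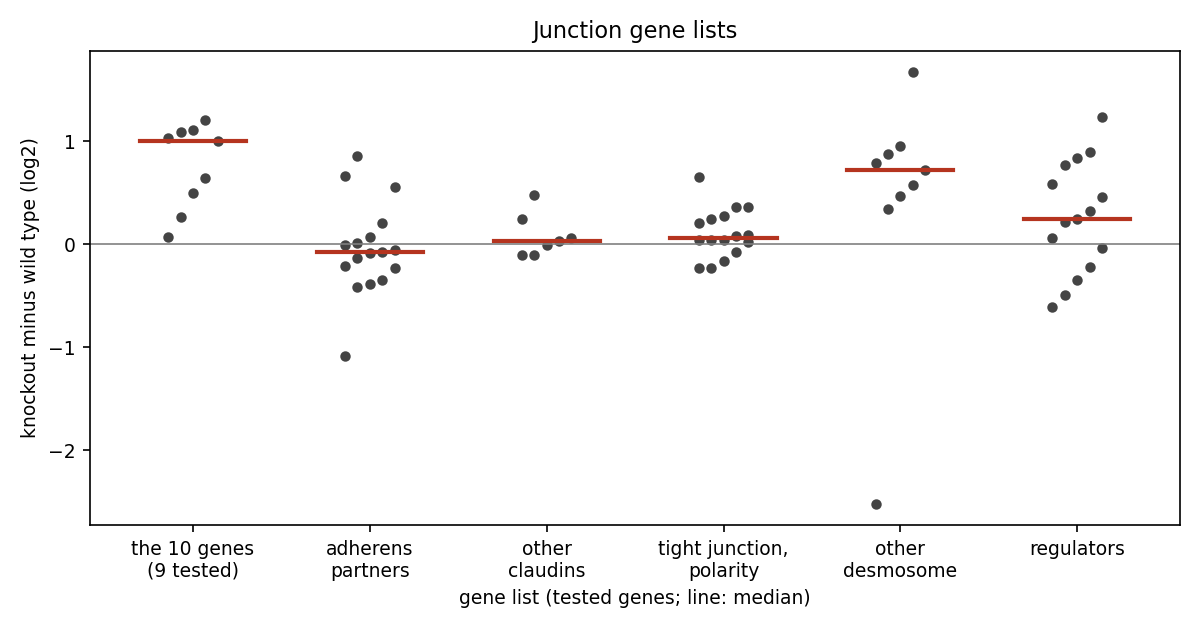
Difference between genotypes (knockout minus wild type, log2, vertical axis) of each tested gene in the junction set and in 5 lists of related genes, with a line at the median. The medians are 1.00 for the 9 tested junction genes and 0.73 for the other desmosome genes, where Pkp2 is the lowest point at -2.52, and lie between -0.07 and 0.25 for the remaining lists. The desmosome list includes Dsc1 and Evpl, which reached the brightness limit only through knockout replicate 1.

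By the same root mean square distance, 5 genes outside all lists came closest to the median profile of the 10 members over the 4 arrays, out of 10539 compared. These were Shroom3 (0.055), which encodes an actin-binding protein of the apical junction, the potassium channel gene Kcnk1 (0.066), the fatty acid hydroxylase gene Fa2h (0.070), the methyltransferase gene Setd4 (0.077) and the cohesin loader gene Mau2 (0.080). Shroom3 gave 6.15 and 5.89 in the wild-type pair and 6.87 and 6.28 in the knockout pair, with a limma adjusted p of 0.286. The members themselves lay farther from their own median, from 0.21 in Cldn8 to 1.29 in Dsp, so the median profile describes no single member closely.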

How the data were processed

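RNA of whole glands was hybridised to 4 Affymetrix arrays after labelling that, per the labels' protocols, starts at the 3-prime end of transcripts. The authors deposited 1 value per probe set, for which the submitters' processing notes name RMA and the package affy without a version. The deposited values are on a log2 scale, which was read from the values and is not stated. RMA equalises the arrays, so a shift shared by most genes would be lost, and differences near background are compressed. The number of arrays limits the precision.

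Of 45141 probe sets, 28898 were annotated with 1 gene, 551 with several and 15692 with none. Gene identifiers of 28689 matched a RefSeq table (GRCm38.p6), and 0 symbols changed. The brightest probe set stood for each gene. Genes with a mean of at least 4.94 were compared between genotypes with limma 3.58.1 (lmFit, eBayes, no covariate) in R 4.3.3 and Benjamini-Hochberg adjustment at 0.05 over 11078 genes, and 16329 single-gene probe sets were fitted likewise. The procedure was tested on simulated data. The report names all 10 members, Mmp14, up to 4 genes with the smallest p per junction list and the 5 nearest profiles. Krt8, Krt18, Prom1, Krt14, Acta2, Oxtr, Lor, Lep, Dsc1, Evpl, Grhl1 and Grhl2 were named after their values were seen. The members and lists were chosen with earlier results of these data known. The settings varied were the brightness filter, the choice of probe sets, the scaling, an intensity trend, the replicate number as a block and the arrays included.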

Additional observations from a re-analysis of the deposited data

How the results depend on the processing

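No member passed an adjusted limma p of 0.05 under the other filters, probe set choices, scalings, the intensity trend or the replicate block, and 0 genes or probe sets of the whole array passed there. With 1 array left out the number called ranged from 0 to 4180 genes, from 0 to 6156 probe sets and from 0 to 3 members, and was 0 without either wild-type array. The differences then ranged from 0.46 to 1.96 in Cdh1, from 0.23 to 0.31 in Cdh3, from 0.047 to 2.13 in Cldn1, from 0.23 to 1.78 in Cldn4 and from -0.70 to 2.92 in Dsp, where the sign turned without knockout replicate 1. Averaging a gene's probe sets moved Cdh3 to 0.10, below the brightness limit and untested, since its second set is dimmer, and Epcam to 0.47, Cldn1 to 0.62, Cldn3 to 0.47 and Dsp to 0.72. Without sets ending in a_at, s_at or x_at there was no value for Epcam, Cldn3 or Jup, and Cldn1, then read from its dimmer set, was 0.15 and untested. Median centring, quantile normalisation and cyclic loess left all 10 directions as they were. With the replicate block the smallest adjusted p of a member was 0.227. Deviations of same-numbered arrays from their group means correlated at -0.0885 across genes, which with 2 arrays per group cannot show whether samples are paired. The labels call the numbers biological replicates, and they were not treated as pairs in the main fit.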
